A study of Rattus norvegicus with 11 samples.

Results

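Slc17a7, Neurod2, Neurod6, Tbr1 and Slc17a6 are genes of glutamatergic neurons of the forebrain, and their transcript levels were read here in dissected rat striatum 3 days after intracerebral hemorrhage (ICH). They were chosen by symbol, as genes known from glutamatergic neurons of the cortex and neighbouring regions. They make up 5 of the 30560 genes listed, and all 5 had enough counts to enter the test, which covered 15742 genes. RNA came from single rats, 1 library each, and 11 libraries in 4 groups were used. All rats were adult male Sprague-Dawley animals. The Normal group (2 rats, replicates 1 and 3) had neither collagenase nor aspiration, so no group shows the effect of a needle or of saline alone. The IC group (common ICH, 3 rats, replicates 2 to 4) had 0.2 U of collagenase VII-S, an enzyme that opens small vessels, in 1.0 μL of saline injected into the right striatum. The IS group (severe ICH, 3 rats, replicates 2 to 4) had 0.6 U in 3.0 μL, so dose and injected volume differed together between IC and IS. The IS-HA group (3 rats, replicates 1 to 3) had the IS injection, and 150 μL of the hematoma was drawn off through a catheter 6 h later.

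The striatum contains almost no cell bodies of glutamatergic neurons. Its own neurons are GABAergic projection neurons and interneurons, and the glutamate it receives comes from axons whose cell bodies, and most of their messenger RNA, lie in the cortex and the thalamus. Slc17a7 encodes VGLUT1, the transporter that fills synaptic vesicles with glutamate in cortical and hippocampal neurons, and Slc17a6 encodes its relative VGLUT2, which prevails in the thalamus and other subcortical nuclei. Neurod2 and Neurod6 encode basic helix-loop-helix transcription factors of differentiating and mature cortical excitatory neurons, and Tbr1 encodes a T-box factor of deep-layer cortical neurons. In bulk tissue a lower value can mean fewer cells of a type or less RNA per cell. It can also mean less cortex or thalamus in the dissected piece, or more RNA from other cells. These cannot be told apart here.

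The start-site sequences of 4 of the genes are shown because the 2 Neurod genes encode factors that bind a short E-box and the 2 Slc17a genes are relatives whose levels were ordered differently between groups. Each runs from 250 bases before to 50 bases after the RefSeq start of the gene on its own strand, in build GRCr8, which is not the build of the counts. All 5 genes had an entry. Capitals mark CAGATG, an E-box that NeuroD factors bind, searched on both strands.
Neurod2 (chr10:83824228-83824527, minus strand): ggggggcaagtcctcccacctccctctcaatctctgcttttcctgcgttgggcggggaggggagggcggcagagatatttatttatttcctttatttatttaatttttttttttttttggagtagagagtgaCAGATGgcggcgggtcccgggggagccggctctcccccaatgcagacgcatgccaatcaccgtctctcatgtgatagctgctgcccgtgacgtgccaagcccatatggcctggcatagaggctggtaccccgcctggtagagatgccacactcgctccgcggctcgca
Neurod6 (chr4:86180106-86180405, minus strand): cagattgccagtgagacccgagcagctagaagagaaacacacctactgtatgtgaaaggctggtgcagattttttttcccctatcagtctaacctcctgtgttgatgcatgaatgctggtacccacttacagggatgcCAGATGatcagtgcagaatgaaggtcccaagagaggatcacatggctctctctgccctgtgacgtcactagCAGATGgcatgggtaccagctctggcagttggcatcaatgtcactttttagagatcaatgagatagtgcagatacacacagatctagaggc
Slc17a7 (chr1:104785955-104786254, plus strand): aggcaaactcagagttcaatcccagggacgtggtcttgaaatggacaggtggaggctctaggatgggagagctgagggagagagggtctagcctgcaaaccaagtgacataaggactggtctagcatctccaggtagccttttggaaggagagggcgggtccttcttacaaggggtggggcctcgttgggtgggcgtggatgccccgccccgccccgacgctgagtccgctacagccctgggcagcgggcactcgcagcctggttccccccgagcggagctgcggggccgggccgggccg
Slc17a6 (chr1:110348197-110348496, plus strand): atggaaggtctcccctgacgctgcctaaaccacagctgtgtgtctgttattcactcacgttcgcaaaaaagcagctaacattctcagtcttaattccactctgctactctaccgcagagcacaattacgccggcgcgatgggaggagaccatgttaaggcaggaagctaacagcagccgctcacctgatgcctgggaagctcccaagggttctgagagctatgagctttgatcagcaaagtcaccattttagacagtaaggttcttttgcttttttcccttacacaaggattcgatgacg
The letters CAGATG occurred at 1 place in the Neurod2 window, starting 118 bases before the start site, and at 2 places in the Neurod6 window, 112 and 41 bases before it. They were in none of the other 3 windows, and 16.6% of all 33469 windows of the same length held them. The wider E-box CANNTG, which includes CAGATG, was in all 5 windows and in 72.1% of all windows. The T-box half-site AGGTGTGA was in none of the 5 and in 1.1% of all windows. These are letter matches, and nothing measured here bears on binding.

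Total counts per library ran from 6701301 (IS-HA replicate 2) to 18817645 (IC replicate 3), so that 3 counts, taken here as the floor of detection, correspond to 0.159 to 0.448 CPM, the count scaled to a common library size. Each library held striatal tissue, since all 12 striatal projection neuron genes examined were detected in it. How much other tissue a library held is not shown by this. Ppp1r1b, which encodes DARPP-32, ranged from 447 to 2287 in units of TPM (transcripts scaled per gene length and library). The summed level of the 12 genes was 7640 and 8168 TPM in the Normal rats. It was 3359 to 6314 in IC, 1613 to 4166 in IS and 1711 to 3597 in IS-HA. IS replicate 4 stood apart: it had the lowest sum of these genes and of 10 pan-neuronal genes (720 TPM against 1515 to 4883 in the other rats), and values without it are given below beside the fold changes, calls and correlations that it moved. Intervals on counts given below are exact Poisson intervals and cover counting error only.

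Slc17a7 (ENSRNOG00000020650) was the most abundant of the 5 genes per transcript length in every rat. Its level was 83.0 and 299 TPM in Normal replicates 1 and 3, and 114, 26.7 and 26.4 TPM in IC replicates 2, 3 and 4. In IS replicates 2, 3 and 4 it was 332, 100 and 9.77 TPM. In IS-HA replicates 1, 2 and 3 it was 169, 89.4 and 241 TPM. The highest and the lowest of the 11 rats were thus both IS rats, 34.0-fold apart, and the ranges of all 4 groups overlapped. These values rested on 104 counts in IS replicate 4 and on 397 to 6668 counts elsewhere, so counting error was small beside the spread between rats. Group means followed the order Normal (191 ± 152 TPM, SD, n = 2), IS-HA (166 ± 76.0, n = 3), IS (147 ± 166, n = 3) and IC (55.7 ± 50.4, n = 3), and neighbours in that order differed by less than the larger of their SDs.

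Tbr1 (ENSRNOG00000005049) took nearly the same course from rat to rat at a lower level. It stood at 8.14 and 28.5 TPM in the Normal rats (replicates 1 and 3) and at 12.1, 2.38 and 2.14 TPM in IC (replicates 2, 3 and 4). It was 36.8, 12.5 and 0.845 TPM in IS (replicates 2, 3 and 4) and 19.1, 7.01 and 22.2 TPM in IS-HA (replicates 1, 2 and 3). IS replicate 2 was again the highest rat and IS replicate 4, with 12 counts, the lowest, 43.5-fold apart. The groups overlapped, although the mean of IC (5.55 ± 5.70 TPM, SD, n = 3) lay below that of IS-HA (16.1 ± 8.01, n = 3) by more than either SD. IS (16.7 ± 18.3 TPM, n = 3) and Normal (18.3 ± 14.4, n = 2) lay within their SDs of IS-HA.

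Neurod2 (ENSRNOG00000028417) was measured at 2.64 and 12.8 TPM in the Normal rats and at 5.12, 1.03 and 0.883 TPM in IC, in the same order of replicates. It was 17.0, 4.33 and 1.02 TPM in IS and 6.59, 1.78 and 10.2 TPM in IS-HA. The order of rats was close to that of Tbr1, with IS replicate 2 highest, although here IC replicate 4 (11 counts) and IS replicate 4 (9 counts) shared the bottom. The exact intervals of those counts, 5.49 to 19.7 and 4.12 to 17.1, overlapped. Group means of 7.70 ± 7.15 (Normal, SD, n = 2), 2.34 ± 2.40 (IC, n = 3), 7.45 ± 8.44 (IS, n = 3) and 6.20 ± 4.24 TPM (IS-HA, n = 3) differed from the next in size by less than the larger SD.

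Neurod6 (ENSRNOG00000026055) departed from this order in IS replicate 2. It was 6.15 and 15.3 TPM in the Normal rats, 6.95, 1.51 and 2.47 TPM in IC, 4.92, 4.53 and 0.113 TPM in IS, and 11.3, 3.66 and 6.63 TPM in IS-HA. IS replicate 2, the highest of all rats for Slc17a7, Tbr1 and Neurod2, was only the sixth highest for Neurod6, and Normal replicate 3 was the highest. The 3 IS rats all lay below both Normal rats, which was not so for Slc17a7, Tbr1 or Neurod2. The share of all genes with such a separation was not counted. The single count of Neurod6 in IS replicate 4 has an interval of 0.0253 to 5.57 counts and lies under the floor of 3, so the 135-fold range of this gene across rats is poorly fixed at its lower end. Group means were 10.7 ± 6.44 (Normal, SD, n = 2), 7.18 ± 3.82 (IS-HA, n = 3), 3.65 ± 2.90 (IC, n = 3) and 3.19 ± 2.67 TPM (IS, n = 3), with neighbours in this order less than the larger SD apart.

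Slc17a6 (ENSRNOG00000016147) was ordered differently from the other 4. It was 1.67 and 10.3 TPM in the Normal rats, 0.967, 4.69 and 0.548 TPM in IC, 0.818, 1.46 and 0.0703 TPM in IS, and 18.5, 8.03 and 34.0 TPM in IS-HA. All IS-HA rats were above all IC and all IS rats, and all IS rats were below both Normal rats, while Normal replicate 3 lay inside the IS-HA range. How many of all genes separated these groups in the same way was not counted. IS replicate 2, with more Slc17a7 than any other rat, had 16 counts of Slc17a6 and IS replicate 4 had 1 count (interval 0.0253 to 5.57, under the floor). Group means ran from IS-HA (20.2 ± 13.1 TPM, SD, n = 3) over Normal (5.98 ± 6.09, n = 2) and IC (2.07 ± 2.28, n = 3) to IS (0.784 ± 0.697, n = 3). Only the step from IS-HA to Normal was larger than either SD.

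**Figure D1:**
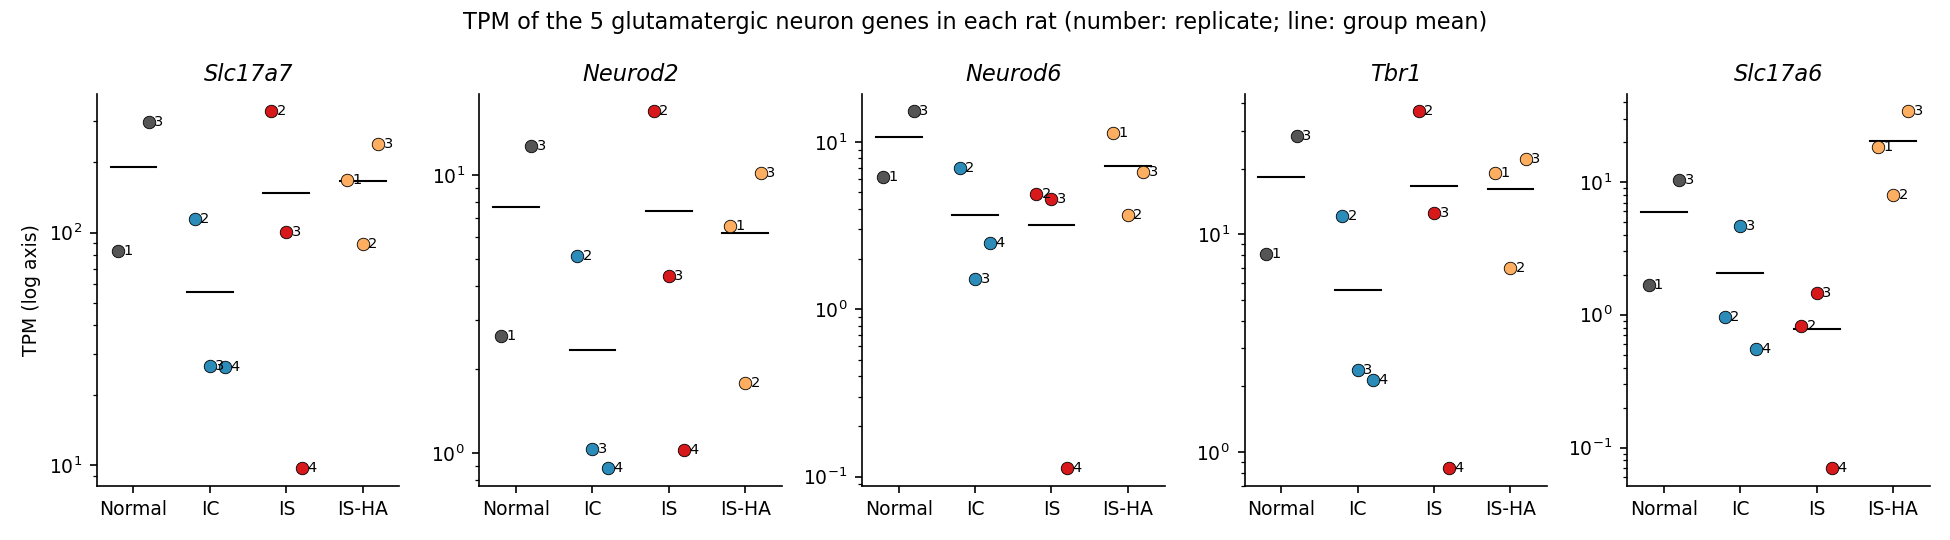
TPM on a log axis of Slc17a7, Neurod2, Neurod6, Tbr1 and Slc17a6 in each rat, 1 panel a gene, with groups along the horizontal axis, replicate numbers beside the points and a line at each group mean. For Slc17a7, Tbr1 and Neurod2 the 3 IS rats span almost the whole range of all rats, whereas for Slc17a6 the 3 IS-HA rats (8.03 to 34.0 TPM) lie above every IC and IS rat.

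Rats of 1 group differed widely in these genes. The SD of log2 CPM within groups, pooled over the 4 groups, was 1.56 for Slc17a7, 1.44 for Neurod2, 1.49 for Neurod6, 1.68 for Tbr1 and 1.43 for Slc17a6, against a median of 0.339 over all genes tested. Between 99.7% and 99.8% of the 15742 genes had a smaller SD than each of the 5. Without IS replicate 4, a choice made after seeing the data, the SDs were 1.01, 1.25, 0.79, 1.07 and 1.22 in the same order of genes (median of all genes 0.326), and 92.4% (Neurod6) to 99.3% (Neurod2) of the genes tested had a smaller one. With 2 or 3 rats a group, this spread set how large a group difference had to be to pass the test.

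**Figure D2:**
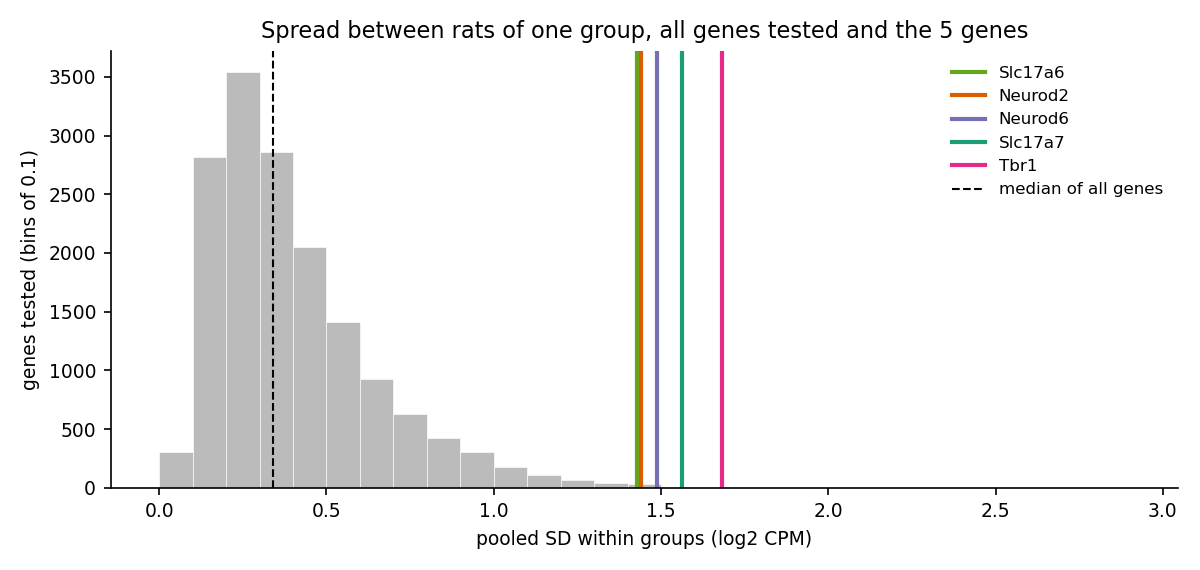
Histogram of the pooled SD within groups (log2 CPM, horizontal axis) over the genes tested (vertical axis, number of genes in bins of 0.1), with a dashed line at the median of 0.339 and a coloured line for each of the 5 genes. The 5 lines lie between 1.43 and 1.68, in the far right tail of the distribution.

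The 4 genes Slc17a7, Tbr1, Neurod2 and Neurod6 varied together within groups, and Slc17a6 did so less closely. After each group's mean was taken from log2 CPM, Pearson's r with Slc17a7 over the 11 rats was 0.995 for Tbr1, 0.945 for Neurod2, 0.923 for Neurod6 and 0.554 for Slc17a6. These coefficients describe 11 libraries that share their depth and scaling across genes, and IS replicate 4 is the lowest rat in 4 of the 5 genes, Neurod2 being the exception. Without that rat, left out after seeing the data, r with Slc17a7 over the other 10 was 0.985 for Tbr1, 0.973 for Neurod2, 0.764 for Neurod6 and 0.129 for Slc17a6. Ranked among all tested genes by their r with Slc17a7, Tbr1 was first, Neurod2 was number 53, Neurod6 number 113 and Slc17a6 number 2724. The 5 genes with the highest r to Slc17a7 were Tbr1, Ube2ql1 (0.987), Doc2a (0.987), which encodes a calcium sensor of transmitter release, Lingo2 (0.983) and Cntnap4 (0.983). These ranks rest on all 11 rats. Those with the highest r to Slc17a6 were Scn4a (0.951), Fndc1 (0.951), Bcorl1 (0.936), Cntrob (0.924) and Scube2 (0.921), none of which was among the 5 for Slc17a7. With group means left in, their r to Slc17a6 was only 0.577, 0.459, 0.366, 0.092 and 0.435 in the same order. For the 5 genes of Slc17a7 it was 0.736 to 0.994. Scn4a had at most 0.936 TPM in a rat.

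A list of 12 other cortical excitatory genes, among them Emx1, Fezf2, Cux2, Rorb, Neurod1, Slc30a3, Kcnv1 and Nrn1, which holds transcription factors of cortical layers and synaptic genes, followed Slc17a7 from rat to rat. Its median r with Slc17a7 was 0.903 (0.581 to 0.957), beside a median of -0.0041 over all genes tested. The 10 pan-neuronal genes had a median of 0.815, the 12 striatal projection neuron genes one of 0.142, and the 4 tested thalamic genes one of -0.013. Microglia and macrophage genes (9 genes) and hemoglobin genes (2 genes) both had a median of -0.50. With Slc17a6 the median was 0.569 for the other cortical genes, 0.518 for the thalamic genes and -0.085 for the striatal projection neuron genes. With IS replicate 4 left out the medians with Slc17a7 were 0.766 (other cortical), 0.637 (pan-neuronal), -0.304 (striatal projection neuron) and 0.203 (thalamic), and those with Slc17a6 were 0.237 (other cortical), 0.798 (thalamic) and -0.337 (striatal projection neuron).

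Cortical and striatal neuron genes gave different orders of the same rats. On a scale of mean log2 CPM relative to all 11 rats, Slc17a7, Neurod2, Neurod6 and Tbr1 together stood at 0.08 and 1.74 in Normal replicates 1 and 3, while the 12 striatal projection neuron genes stood at 1.49 and 1.37. In IS replicate 2 the cortical genes were at 1.55 and the striatal genes at -1.08, a difference of 2.63 and the largest of the 11 rats. IS replicate 4 was low in both, at -2.93 and -1.18. The difference between the cortical and the striatal genes averaged -0.52 ± 1.25 (SD, n = 2) in Normal, -1.36 ± 1.07 (n = 3) in IC, 0.38 ± 2.19 (n = 3) in IS and 1.33 ± 0.83 (n = 3) in IS-HA. All 3 IS-HA rats had a positive difference (0.64 to 2.24) and all 3 IC rats a negative one (-2.23 to -0.17), but the Normal and the IS rats had both signs.

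**Figure D3:**
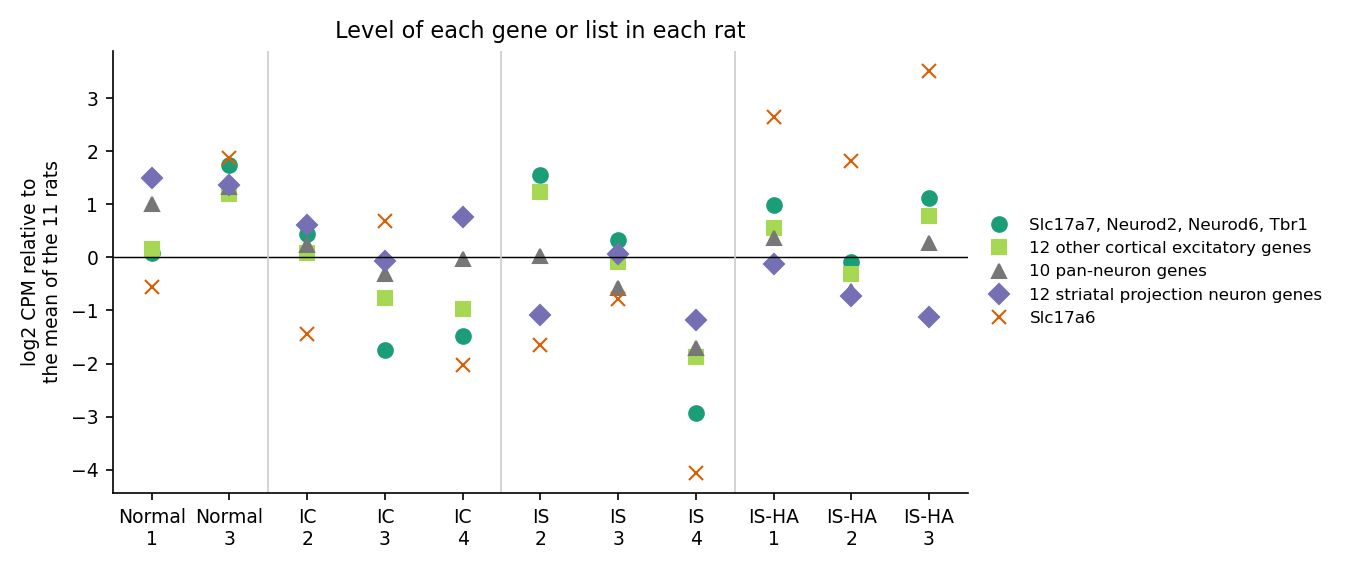
Mean log2 CPM relative to the 11 rats (vertical axis) of Slc17a7, Neurod2, Neurod6 and Tbr1 together, of 12 other cortical excitatory genes, of 10 pan-neuronal genes, of 12 striatal projection neuron genes and of Slc17a6 alone, in each rat (horizontal axis). The circles and squares of the cortical genes move together from rat to rat, and in IS replicate 2 they stand high (1.55 for the circle) while the diamond of the striatal genes stands low (-1.08).

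The comparison of IC with Normal asks what the smaller hemorrhage changed. All 5 genes had lower means in IC, by a similar amount, and none passed the test. The log2 fold changes were -1.82 (SE 1.01) for Slc17a7, -1.74 (SE 1.02) for Neurod2, -1.59 (SE 0.83) for Neurod6, -1.76 (SE 1.05) for Tbr1 and -1.54 (SE 0.91) for Slc17a6, with adjusted p from 0.197 (Neurod6) to 0.255 (Tbr1) by the quasi-likelihood test of edgeR, adjusted after Benjamini and Hochberg over all 15742 genes. A gene was called where the adjusted p was under 0.05 and the absolute log2 fold change at least 1. Over all genes 2.66% were called lower and 10.9% higher, so that 0 of 5 called is close to what the background gives. An unadjusted p under 0.05 was found for 0 of the 5, and DESeq2 and limma called 0 as well. In every one of the 5 genes at least 1 IC rat lay within the Normal range: IC replicate 2 had more Slc17a7, Neurod2, Neurod6 and Tbr1 than Normal replicate 1, and IC replicate 3 had more Slc17a6. Among the 12 other cortical genes 0 were called and the median log2 fold change was -1.26 (median of all genes 0.0033). The pan-neuronal genes had 3 of 10 called lower (median -1.20) and the striatal projection neuron genes 1 of 12 (median -0.92). Without IS replicate 4, which enters this comparison only through the shared spread, 2 of the 12 other cortical genes, 5 of 10 pan-neuronal genes and 2 of 12 striatal projection neuron genes were called lower. Microglia and macrophage genes, with 8 of 9 called higher, summed to 218 and 296 TPM in Normal and 1570 to 2137 TPM in IC, and their part in the values of the 5 genes was not tested. The values moved with single rats: without Normal replicate 3 Slc17a7 was at -0.72, Neurod2 at -0.31 and Slc17a6 at 0.18, and without IC replicate 2 Slc17a7 was at -2.84, again with no call.

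The comparison of IS with Normal covers the larger hemorrhage. Slc17a6 was called lower, Neurod6 was lower in all IS rats without passing the test, and the other 3 had means close to Normal with a very wide spread. Slc17a6 had a log2 fold change of -2.81 (SE 1.00), a 6.99-fold lower level, with an adjusted p of 0.0377 by edgeR's quasi-likelihood test. Its level in 3 of 3 IS rats was below either Normal rat, but narrowly for IS replicate 3. That rat had 1.46 TPM (30 counts) against 1.67 TPM (51 counts) in Normal replicate 1. The share of all genes without overlap between IS and Normal was not counted. Neurod6 was at -1.70 (SE 0.84, adjusted p 0.115). Slc17a7 (-0.39, SE 1.02), Tbr1 (-0.14, SE 1.04) and Neurod2 (-0.04, SE 1.00) had adjusted p from 0.767 to 0.977 in the same fit, and the IS range enclosed the Normal range in each of them. The 1 of 5 called stands beside a background of 17% of all genes called lower and 18.8% called higher, and is a share near that background.

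The call of Slc17a6 in IS did not hold throughout. Of the alternatives counted next, those without an IC or IS-HA rat bear on it only through the filter, scaling and shared spread. Another only drops the fold cutoff from the same fit, so it could not lose the call. It was made in 15 of 22 alternatives that could be fitted (adjusted p 0.0233 to 0.505), always with a negative fold change. Without Normal replicate 3 the log2 fold change was -1.09 (adjusted p 0.505), without IS replicate 2 it was -2.76 (0.0860) and without IS replicate 4, the rat with 1 count, it was -2.36 (0.0994). Without IS replicate 4 the signs of Slc17a7 (0.16), Neurod2 (0.45) and Tbr1 (0.41) turned positive and Neurod6 was at -1.18, none of them called. Around these genes 11 of 12 striatal projection neuron genes (median -1.71), 8 of 10 pan-neuronal genes (median -1.54) and all 7 GABA and interneuron genes (median -1.60) were called lower, against 1 of the 12 other cortical genes (median -0.56, all genes 0.018). These counts without IS replicate 4 were 8 of 12 striatal projection neuron genes (median -1.50), 6 of 10 pan-neuronal genes (-1.22), 6 of 7 GABA and interneuron genes (-1.37) and 1 of the 12 other cortical genes (-0.23). In the fit with all rats that 1 cortical gene was Kcnv1, a potassium channel subunit (-2.36, adjusted p 0.00217), which was at 24.5 and 34.5 TPM in Normal and 2.54 to 7.30 TPM in IS. The largest positive value in that list was Slc30a3, the zinc transporter of glutamatergic vesicles (1.49, SE 1.02, adjusted p 0.243), at 59.9 TPM in IS replicate 2 and 2.45 TPM in IS replicate 4. Neutrophil genes (3 tested, 3 called higher) summed to 490 to 684 TPM in IS and about 5 TPM in Normal (4.97 and 5.14), and their part was not tested.

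After aspiration, the comparison of IS-HA with Normal called 0 of the 5 genes, where 7.71% of all genes were called lower and 15.1% higher. Slc17a6 had the largest fold change, 1.72 on the log2 scale (SE 0.95, adjusted p 0.178, edgeR), being above Normal replicate 1 in 3 of 3 rats and above Normal replicate 3 in 2 of 3. It was 0.96 without Normal replicate 1 and 3.44 without Normal replicate 3 (adjusted p 0.539 and 0.126, edgeR), with no call. The other 4 lay near Normal, at -0.22 (Slc17a7, SE 1.02), -0.34 (Neurod2, SE 1.00), -0.59 (Neurod6, SE 0.83) and -0.22 (Tbr1, SE 1.04), with adjusted p of 0.596 or more. An unadjusted p under 0.05 was found for 0 of the 5, and DESeq2 and limma called 0. Of the striatal projection neuron genes 11 of 12 were called lower, with a median of -1.91. Of the 12 other cortical genes Kcnv1 alone was called lower (-1.90, adjusted p 0.0107), and the list's median was -0.28 (all genes 0.056). Among thalamic genes 3 of the 4 tested were called higher, namely Prkcd (1.53), Tcf7l2 (1.27) and Rgs16 (2.26), of which Rgs16 was also called higher in IC (1.71) and IS (2.40). These 3 comparisons share the same 2 Normal rats.

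Between IS and IC, which differ in the dose and volume injected, 0 of the 5 genes were called, and so were 0% of all genes in either direction by edgeR's quasi-likelihood test (810 genes lower and 530 higher at an unadjusted p under 0.05). limma called 0 of all genes too, while DESeq2 called 352 lower and 265 higher, with 0 of the 5 among them. Without IS-HA replicate 2, a rat of neither group that enters through the shared spread, edgeR called 616 genes lower (3.87%) and 348 higher (2.19%), again with 0 of the 5 among them. Slc17a7 (1.43, SE 0.94), Tbr1 (1.62, SE 0.97) and Neurod2 (1.70, SE 0.95) had higher means in IS, with adjusted p of 0.364, 0.327 and 0.299. Neurod6 was at -0.11 (SE 0.79) and Slc17a6 at -1.27 (SE 0.96). The spread inside IS was wider than the distance between the groups: IS replicate 2 was above all IC rats for Slc17a7, Tbr1 and Neurod2, and IS replicate 4 was below all of them for Slc17a7 and Tbr1. Without IS replicate 4 the fold changes of Slc17a7, Tbr1 and Neurod2 were 1.97, 2.17 and 2.19, and without IS replicate 2 they were 0.096, 0.40 and 0.35, with no call in either case.

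**Figure D4:**
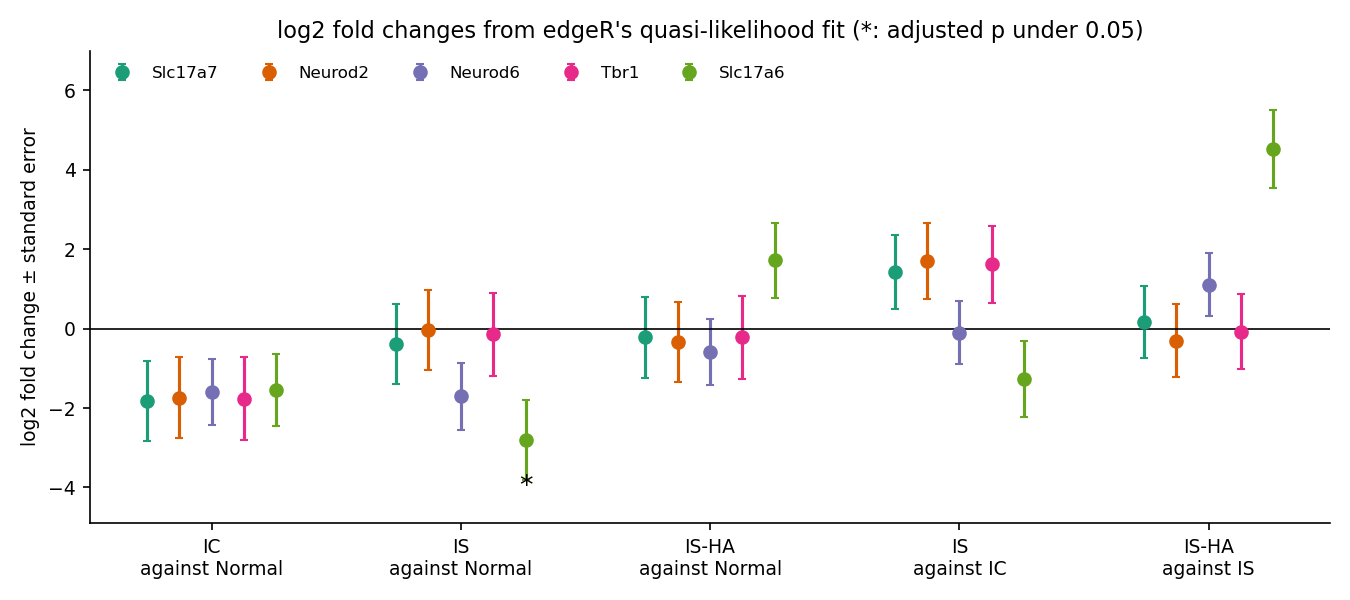
log2 fold change with its standard error (vertical axis) of the 5 genes in 5 comparisons (horizontal axis), from edgeR's quasi-likelihood fit, with an asterisk where the adjusted p is under 0.05. Slc17a6 has the one asterisk, in IS against Normal (-2.81), and the point farthest from 0, in IS-HA against IS (4.53), which has none.

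Aspiration itself is addressed by IS-HA against IS. Slc17a6 stood at 18.5, 8.03 and 34.0 TPM after aspiration and at 0.818, 1.46 and 0.0703 TPM without it, a log2 fold change of 4.53 (SE 0.98), or 23.0-fold. The groups did not overlap, but the share of all genes without overlap between these groups was not counted. In edgeR's quasi-likelihood test the unadjusted p was 0.000747 and the adjusted p over all genes was 0.383, so the gene was not called. Only 0.00635% of all genes (1 gene) were called higher in this comparison and 0% lower, while 431 were higher and 143 lower at an unadjusted p under 0.05. DESeq2's Wald test called it (4.58, adjusted p 0.0127) among 0.284% of genes called higher. So did edgeR without IS-HA replicate 2, the shallowest library (4.82, adjusted p 0.0376), where 2.48% of genes were called higher. The fold change was between 3.44 and 5.29 in all 22 alternatives that could be fitted, and 3 of them made the call. The third was edgeR scaled to the striatal projection neuron genes (adjusted p 1.06e-09). That fit put all weight on the spread shared between genes, so a gene's own spread between rats did not enter its test. It called most genes higher in IS against Normal. The largest adjusted p of the alternatives was 0.999. Without IS replicate 4, whose single count is the lowest value, it was 4.08.

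Of the other 4 genes, Slc17a7, Neurod2 and Tbr1 had every IS-HA rat within the range of the IS rats. Slc17a7 was at 0.17 (SE 0.92), Neurod2 at -0.30 (SE 0.91), Tbr1 at -0.08 (SE 0.94) and Neurod6 at 1.11 (SE 0.79), with adjusted p of 0.657 or more, 0 of 4 called. For Neurod6, IS-HA replicates 1 and 3 (11.3 and 6.63 TPM) lay above every IS rat. IS-HA replicate 2 (3.66 TPM) lay within the IS range of 0.113 to 4.92 TPM. The 3 IS-HA rats lay closer together than the 3 IS rats, from 89.4 to 241 TPM against 9.77 to 332 TPM for Slc17a7, a difference in spread that was not tested. The 12 other cortical genes had a median of 0.24 with 0 called, and the striatal projection neuron genes one of 0.046 with 0 called, and with IS replicate 4 left out these medians were -0.11 and -0.23, again with 0 called.

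Thalamic genes were examined beside Slc17a6, and 0 of the 4 tested were called in IS-HA against IS (median log2 fold change 0.89, all genes 0.045). Rgs16 was at 48.0, 34.0 and 65.7 TPM in IS-HA replicates 1, 2 and 3 against 43.6 to 67.3 TPM in IS. Prkcd was at 31.3, 12.8 and 25.6 TPM against 13.1 to 17.2 TPM. Gbx2, a transcription factor of thalamic neurons, had 7, 1 and 52 counts in IS-HA replicates 1, 2 and 3 and at most 2 counts in any IS rat, with 13 and 14 counts in Normal. Lhx9, another, had 11, 0 and 36 counts and 0 in each IS rat, and both had too few counts to enter the test. Ntng1, an axon guidance gene of thalamic projection neurons, was at 12.9, 1.62 and 14.5 TPM in IS-HA against 0.959 to 3.33 TPM in IS (log2 fold change 2.28, adjusted p 0.540, edgeR), and Tcf7l2 at 21.8, 9.79 and 36.8 TPM against 9.11 to 9.28 TPM (1.22, adjusted p 0.499). IS-HA replicate 2, the shallowest library, was near the IS rats in Gbx2, Lhx9 and Ntng1, and slightly above them in Tcf7l2. Its Slc17a6 level of 8.03 TPM was above every IS rat. The 4 tested thalamic genes summed to 21.2 and 49.3 TPM in Normal, 44.6 to 86.9 in IC, 67.4 to 94.8 in IS and 58.4 to 153 in IS-HA. Rgs16 weighed heavily in these sums, with 67.3 of the 94.8 TPM in IS replicate 4. In Normal replicates 1 and 3 Rgs16 was at 6.44 and 13.9 TPM, Prkcd at 3.44 and 12.4, Tcf7l2 at 7.24 and 10.9 and Ntng1 at 2.86 and 10.8. The sum therefore does not stand for each gene. Choroid plexus genes (5 of 6 tested, 0 called in this comparison) summed to 9.81 to 15.9 TPM in IS and 15.1 to 29.1 in IS-HA. The part of these tissues in the level of Slc17a6 was not tested.

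The ratio of Slc17a7 to Slc17a6 within a rat needs no scaling between rats, and it set the IS-HA rats apart from IS and Normal. Computed from TPM with 0.1 added to each, it was 46.9 and 28.7 in the Normal rats, 107, 5.58 and 40.9 in IC, 361, 64.2 and 57.9 in IS, and 9.09, 11 and 7.07 in IS-HA. The IS-HA rats were alike in this ratio and below every Normal and IS rat, while the IC rats spread on both sides of them. On the log2 scale the means were 5.20 ± 0.50 (SD, n = 2), 4.86 ± 2.17 (n = 3), 6.79 ± 1.48 (n = 3) and 3.16 ± 0.32 (n = 3) for Normal, IC, IS and IS-HA. In all, 3 two-sided exact permutation tests were run. IS-HA against IS gave a difference of -3.63 with p = 0.1, the smallest that 3 rats against 3 can give in an exact test (0.3 after Benjamini-Hochberg adjustment over the 3 tests). IS against IC gave 1.93 (exact p = 0.4, adjusted 0.6), and the 9 ICH rats against the 2 Normal rats gave -0.27 (exact p = 0.873, adjusted 0.873, smallest possible 0.0364). The differences without IS replicate 4 were, in the same order, -4.09 (exact p = 0.2), 2.39 (exact p = 0.4) and -0.38 (exact p = 0.8).

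**Figure D5:**
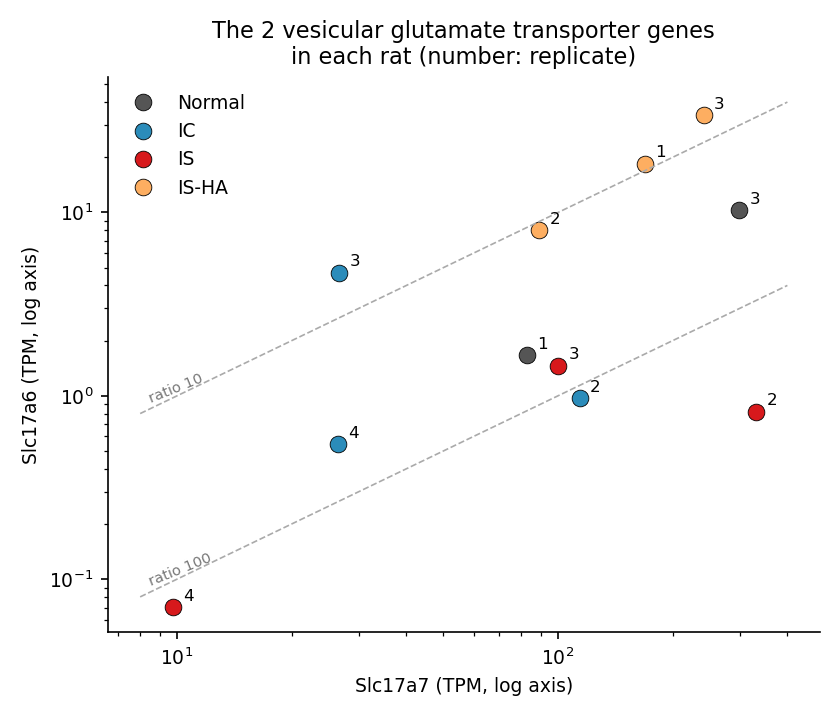
Slc17a6 (vertical axis) against Slc17a7 (horizontal axis) in TPM on log axes, 1 point a rat coloured by group with its replicate number, and dashed lines where the TPM of Slc17a7 is 10 or 100 times that of Slc17a6. The 3 IS-HA rats lie along the line of ratio 10 (9.09, 11 and 7.07), and IS replicate 2 lies farthest to the lower right (361). The plotted TPM have nothing added, so IS replicate 4, with 1 count of Slc17a6, lies below the line of ratio 100, although its ratio with 0.1 TPM added is 57.9.

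Other genes that load or clear glutamate were taken from a list of 7. Slc17a8 encodes VGLUT3 and is known from cholinergic interneurons of the striatum. It was at 10.3 and 7.01 TPM in Normal, 2.40 to 5.90 in IC, 0.833 to 1.24 in IS and 0.811 to 2.58 in IS-HA, and was called lower in IS (-3.10, adjusted p 0.000582, edgeR) and in IS-HA (-2.36, adjusted p 0.00362). In IS against Normal 5 of the 7 were called lower and 1 higher, where 17% of all genes were called lower and 18.8% higher. The list's median log2 fold change was -1.51 (all genes 0.018). Among them Slc17a8, the astrocytic glutamate uptake gene Slc1a2 (-3.74), the neuronal uptake gene Slc1a1 (-1.51) and the glutamine transporter gene Slc38a1 (-2.88) fell, and the glutamine synthetase gene Glul rose (1.09). In IC 2 were called lower (Slc1a2, -1.89, and Slc38a1, -1.59), where 2.66% of all genes were called lower and 10.9% higher. In IS-HA 3 were called lower and 1 higher, beside 7.71% and 15.1% of all genes. The medians were -0.84 in IC (all genes 0.0033) and -0.85 in IS-HA (all genes 0.056). In IS against IC and IS-HA against IS 0 were called, with 0% of all genes called in the former and 0.00635% called higher in the latter. Slc1a3 was called in none of the 5 comparisons.

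Of the closest relatives of Neurod2, Neurod6 and Tbr1, only Neurod1 entered the test. It was called in none of the comparisons, with log2 fold changes from -1.28 (SE 1.08, IC against Normal) to 2.03 (SE 0.99, adjusted p 0.247, IS against IC). Neurod4 had at most 17 counts in a rat. The T-box genes Eomes and Tbx21 had at most 6 and 8 counts, so levels of these 3 were near the floor and group differences in them were not detectable at this depth.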

How the data were processed

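Ipsilateral striatum, or the matching region of Normal rats, was sequenced as stranded poly(A) RNA, 1 library per rat. Per the labels, the authors used fastp 0.20.0, HISAT2 2.1.0, SAMtools 1.9 and featureCounts with build mRatBN7.2, and the deposited table holds raw read counts and TPM per gene. The strand setting of the counting is not given in the sources used here. The members and gene lists were chosen with earlier results of these data known. Groups came from the labels, which number rats within groups, and nothing ties equal numbers to 1 animal. From the counts, genes were filtered with filterByExpr, scaled by TMM and fitted in 1 edgeR 4.0.16 quasi-likelihood model over all 4 groups (R 4.3.3), with Benjamini-Hochberg adjustment over 15742 genes. Standard errors were derived as the size of the log2 fold change over the root of the F statistic. Calls used adjusted p under 0.05 and an absolute log2 fold change of at least 1, the cutoffs in the methods, which name DESeq2. The edgeR step was tested on simulated data in which every gene had the same spread, smaller than that of the 5 genes. It does not show how the test performs for them. log2 CPM carries a prior count of 2. Levels and ratios used the deposited TPM (pseudocount 0.1 TPM for ratios). Alternatives were DESeq2 1.42.0, limma 3.58.1 on log2(TPM + 1), other scalings and filters, and leaving out each rat. Total counts were 6701301 to 18817645 per library. Named genes were the 5 members, genes of the lists, and the 5 genes with the highest within-group r to Slc17a7 and to Slc17a6. Promoter windows came from RefSeq (GRCr8). Values of some list genes are not reported here.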

Additional observations from a re-analysis of the deposited data

How the results depend on the processing

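Of 560 values of single genes under alternatives, 494 kept their sign and call, 50 turned sign (6 of them with a call gained), 9 gained a call with the same sign and 7 lost one. In IC against Normal no alternative called any of the 5 genes. The 1 call in IS against Normal (Slc17a6) became 0 with scaling to library size alone (Neurod2 then 0.12, Tbr1 0.022), with scaling to the pan-neuronal genes and with limma on log2(TPM + 1). Scaling to a neuron list moves all genes: the median log2 fold change over all genes became 2.08 (IS) and 1.27 (IS-HA) against Normal, 0.84 for IS against IC and -0.79 for IS-HA against IS with the pan-neuronal genes, and 2.27, 2.20, 1.21 and -0.063 with the striatal projection neuron genes. With pan-neuronal scaling the signs of Slc17a7 (1.07), Neurod2 (1.50) and Tbr1 (1.32) turned in IS against Normal, of Slc17a7 (0.98), Neurod2 (0.75), Neurod6 (0.54) and Tbr1 (0.92) in IS-HA against Normal, of Neurod6 (0.34) in IS against IC and of Slc17a7 (-0.091) in IS-HA against IS, with 1 gene called in IS-HA against Normal. With striatal scaling 3 genes were called in IS against Normal (Slc17a7 1.89, Neurod2 2.25 and Tbr1 2.11, Neurod6 at 0.32 uncalled), 4 in IS-HA against Normal (Slc17a7 1.95, Neurod2 1.82, Tbr1 1.91 and Slc17a6, Neurod6 at 1.41 uncalled), 3 in IS against IC (Neurod6 at 1.03 uncalled) and 1 in IS-HA against IS. That fit called 12219 genes higher and 104 lower in IS against Normal, and a gene's own spread between rats did not enter its test. It reads genes relative to a list of which 11 of 12 were called lower in the report. DESeq2 called 1 gene in IS-HA against IS. limma turned Neurod2 (0.10) and Tbr1 (0.66) there. The filter of at least 10 counts in every rat removes Slc17a6, Neurod6 and Neurod2 and gives no count.

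Equal replicate numbers were not taken as pairs. Deviations of same-numbered rats correlated at 0.356, -0.34 and 0.0848 between IS and IC, and from -0.475 to 0.356 over all pairs of groups. With so few rats a group, these values cannot decide whether same-numbered rats shared a batch or were paired. With the replicate number added as a block, edgeR called 1 gene in IS-HA against Normal (Slc17a6, 2.33, adjusted p 0.0181) and turned Neurod2 (0.14) and Tbr1 (0.25) in IS-HA against IS.

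With each rat left out in turn, the count called ran from 0 to 1 in IS against Normal (0 without Normal replicate 3, IS replicate 2 or IS replicate 4) and from 0 to 1 in IS-HA against IS (1 without IS-HA replicate 2). Fold changes ran from -2.94 to 0.18 for Slc17a6 in IC against Normal. In IS against Normal they ran from -1.72 to 0.71 (Slc17a7), -1.40 to 1.39 (Neurod2) and -1.36 to 0.92 (Tbr1), and in IS-HA against Normal from -0.84 to 0.87 (Slc17a7), -1.05 to 1.09 (Neurod2), -1.07 to 0.11 (Neurod6) and -0.83 to 0.85 (Tbr1). In IS against IC the ranges were -0.51 to 0.73 (Neurod6) and -2.06 to 0.13 (Slc17a6), and in IS-HA against IS -0.38 to 1.50 (Slc17a7), -0.81 to 1.05 (Neurod2) and -0.62 to 1.14 (Tbr1). The log2 ratio of Slc17a7 to Slc17a6 in all ICH rats against Normal ran from -0.71 to 0.088. With 2 Normal rats, leaving out 1 assumes that the remaining rat varies like the other groups.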
